A study of Homo sapiens with 12 samples.

Results

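Genes of the Notch pathway were followed across KYSE150 cells that carried different forms of TFAP2β: the receptor genes NOTCH1, NOTCH2 and NOTCH3, the ligand genes JAG1 and JAG2, the effector genes HES1, HES2 and HEY1, and the coactivator gene MAML2. They were chosen by name and role in the pathway, with earlier results of these data known. They are 9 of the 24302 features in the count table. All 9 had enough counts to be among the 14792 genes tested. KYSE150 is an established cell line from a human squamous carcinoma of the esophagus, and its RNA was sequenced in 12 libraries, 3 in each of 4 groups. The first 3 groups carried TFAP2β fused to green fluorescent protein (GFP), in its normal sequence (GFP-TFAP2β, here WT) or in the forms labelled GFP-TFAP2β-Mut_IDR3 and GFP-TFAP2β-ΔIDR3. The fourth group carried GFP alone, so every library comes from cells with a GFP construct. TFAP2β belongs to the AP-2 transcription factors, IDR stands for intrinsically disordered region, Δ usually denotes a deletion, and the series describes both altered forms as deficient in phase separation. The labels do not say what promoter drove the constructs, whether a group is 1 clone or a pool, or whether the 3 replicates of a group are separate cultures. The p-values therefore rest on the spread among these libraries alone, and that spread may be technical.

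Notch receptors sit in the cell surface and are bound by Jagged and Delta-like ligands on neighbouring cells. Binding exposes the receptor to an ADAM protease and then to gamma-secretase, which frees the intracellular domain to enter the nucleus, where it joins the DNA-binding protein RBPJ and a Mastermind-like coactivator and switches on genes such as the HES and HEY repressors. In stratified squamous epithelium, esophagus included, Notch signalling is known for guiding basal cells toward differentiation, and NOTCH1 is often mutated in esophageal squamous carcinoma. RNA levels alone do not measure cleaved receptor or pathway activity.

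The promoter sequences of 4 members are shown because these genes carry the largest falls under WT (JAG2, NOTCH3 and MAML2) and the rise of the best known effector (HES1). The sequences are from RefSeq on GRCh38.p14, each read 5′ to 3′ on the gene's own strand and ending before the first annotated transcribed base of GENCODE. The printed spans are chr14:105168825-105169026 (minus strand) for JAG2, chr19:15200996-15201245 (minus) for NOTCH3, chr11:96343196-96343445 (minus) for MAML2 and chr3:194135898-194136144 (plus) for HES1. Capitals mark matches to GCCNNNGGC, a palindrome of the kind AP-2 proteins bind, and to TGGGAA, the core that RBPJ binds, searched on both strands and not overlapping each other.
JAG2: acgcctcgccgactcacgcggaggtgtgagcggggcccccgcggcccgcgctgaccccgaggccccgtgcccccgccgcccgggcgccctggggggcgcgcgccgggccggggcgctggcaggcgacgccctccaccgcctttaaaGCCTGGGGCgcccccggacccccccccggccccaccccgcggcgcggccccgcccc
NOTCH3: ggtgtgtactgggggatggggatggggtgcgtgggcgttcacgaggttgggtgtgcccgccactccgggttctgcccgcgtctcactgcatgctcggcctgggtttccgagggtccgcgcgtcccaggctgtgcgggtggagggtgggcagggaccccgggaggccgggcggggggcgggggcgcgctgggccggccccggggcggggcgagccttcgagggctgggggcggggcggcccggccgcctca
MAML2: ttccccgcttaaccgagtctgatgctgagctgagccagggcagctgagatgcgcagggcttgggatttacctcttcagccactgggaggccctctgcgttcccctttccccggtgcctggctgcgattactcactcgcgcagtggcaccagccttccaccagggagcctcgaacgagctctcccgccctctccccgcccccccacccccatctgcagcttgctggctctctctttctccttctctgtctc
HES1: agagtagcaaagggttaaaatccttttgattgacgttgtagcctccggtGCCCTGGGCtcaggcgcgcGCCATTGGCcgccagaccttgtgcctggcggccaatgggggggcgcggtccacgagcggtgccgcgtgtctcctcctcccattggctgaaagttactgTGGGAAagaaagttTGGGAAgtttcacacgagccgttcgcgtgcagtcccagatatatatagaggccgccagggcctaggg
The JAG2 promoter held 1 AP-2 match, 104 to 96 bases upstream of the RefSeq start. The HES1 promoter held 2 AP-2 matches, 201 to 193 and 182 to 174 bases upstream, and 2 RBPJ matches, 84 to 79 and 70 to 65 bases upstream. The NOTCH3 and MAML2 windows held neither motif. Of the other 4 members with a RefSeq promoter, NOTCH2 and HES2 held 1 AP-2 match each, and NOTCH1 and JAG1 held neither motif, so matches stood in members that rose, that fell and that were not called under WT. The HES2 window lies inside the GENCODE span of HES2, upstream of an internal start. The RefSeq starts of NOTCH1 and NOTCH2 were not found in a GENCODE transcript. Of 35116 RefSeq promoters of the same 250 bases, 19.8% held GCCNNNGGC and 20.8% held TGGGAA. The members' windows ran from 59.2% GC (HES1) to 81.6% GC (JAG2), and these shares were not matched for GC content. A match is a string of letters and does not show that a protein was bound there.

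The libraries held 30.7 M to 43.5 M counts. TFAP2B RNA checked the labels of GFP against the 3 groups with TFAP2β, but not which form a library carried. It averaged 280.3 ± 45.6 counts scaled to library size (CPM) in WT, 702 ± 25.9 CPM in Mut_IDR3 and 704 ± 62.8 CPM in ΔIDR3, against 0.124 ± 0.142 CPM in GFP (SD, n = 3 each). The 3 GFP libraries held 13 counts. Both altered forms thus had more TFAP2B RNA than WT, with log2 fold changes of 1.32 (Mut_IDR3, adjusted p = 5.11e-07) and 1.33 (ΔIDR3, adjusted p = 3.07e-07). The part of this gap in the differences between the altered forms and WT below was not tested. All 10 squamous epithelial markers were expressed, with a summed level of 7828 to 8916 CPM in WT, 6049.8 to 6236 CPM in Mut_IDR3 and 5166 to 5428 CPM in ΔIDR3, against 5928 to 6132 CPM in GFP. Fibroblast markers averaged under 1 CPM for 6 of 7 genes, leukocyte markers for 5 of 5 (PTPRC at 0) and endothelial markers for 4 of 4 (PECAM1 and KDR at 0). In such bulk libraries fewer cells that express a gene and less RNA per cell cannot be told apart.

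Levels of different genes were compared as CPM per kb of transcript. In GFP cells HES1 stood highest at 25.0 ± 0.604 CPM per kb, followed by JAG2 at 21.7 ± 1.21 and JAG1 at 19.2 ± 0.864 CPM per kb (SD, n = 3). NOTCH2 (6.94 ± 0.0809 CPM per kb) was the leading receptor and HES2 (5.91 ± 0.609 CPM per kb) came close to it. NOTCH3 (4.01 ± 0.662 CPM per kb) and NOTCH1 (3.59 ± 0.232 CPM per kb) did not differ beyond their spread. MAML2 (1.10 ± 0.253 CPM per kb) and HEY1 (0.656 ± 0.152 CPM per kb) were the lowest. In WT the order changed at the top: HES1 was at 33.8 ± 0.693, JAG1 at 19.8 ± 0.400, NOTCH2 at 10.1 ± 0.822 and JAG2 at 8.49 ± 1.14 CPM per kb.

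The Notch genes differed between WT and GFP in both directions. Against GFP 3 of 9 members rose (NOTCH1, NOTCH2, HES1) and 3 fell (NOTCH3, JAG2, MAML2), where a gene is called at an adjusted p under 0.05 in edgeR's quasi-likelihood test. Over all genes tested 27.7% rose and 27.1% fell, so the members' counts were near the background. With Mut_IDR3 against GFP 1 member rose and 4 fell, beside 11.2% and 9.85% of all genes. With ΔIDR3 against GFP 1 rose and 6 fell, beside 15.6% and 13.4% of all genes. The median log2 fold change of the members was -0.02 for WT, -0.25 for Mut_IDR3 and -0.51 for ΔIDR3, against -0.01, -0.01 and -0.02 over all genes tested. These comparisons share the 3 GFP libraries.

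**Figure D1:**
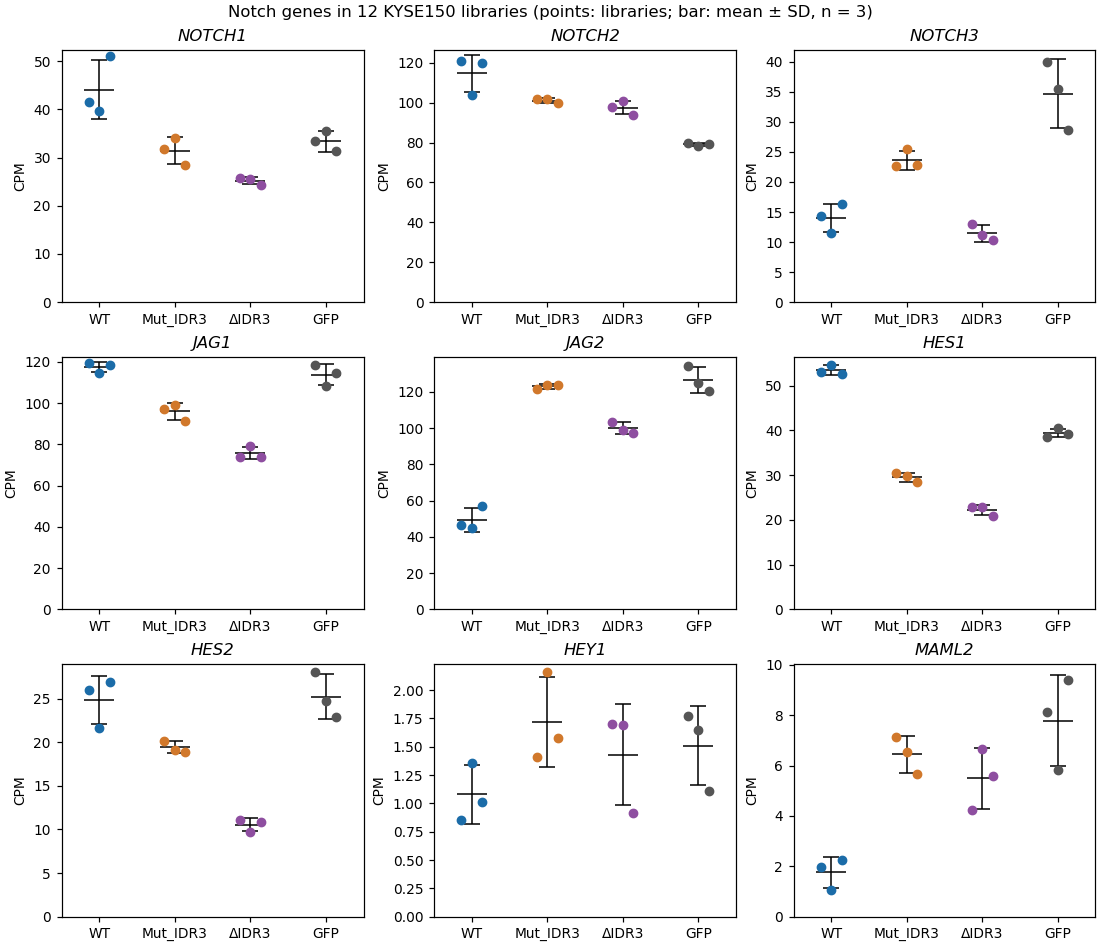
CPM of the 9 Notch genes in each of the 12 libraries, by group (WT, Mut_IDR3, ΔIDR3, GFP); points are libraries and bars are means ± SD of 3. JAG2 lies at 44.9 to 57.2 CPM in WT, under every other library, and HES1 at 52.6 to 54.6 CPM in WT, over every other library.

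Between the forms, 3 members were higher and 5 lower in Mut_IDR3 than in WT, beside 23.2% and 20.9% of all genes. In ΔIDR3 against WT 2 members were higher and 5 lower, beside 27.2% and 25.0% of all genes. In Mut_IDR3 against ΔIDR3 5 members were higher (NOTCH3, JAG1, JAG2, HES1, HES2) and 0 lower, beside 5.54% and 5.24% of all genes. Every member had a positive log2 fold change in that comparison, from 0.05 (NOTCH2) to 1.04 (NOTCH3). The signs alone thus fixed the count of 0 lower, at any threshold. The median log2 fold change of the members was -0.18, -0.29 and 0.32 in these 3 comparisons, against 0.03, 0.03 and -0.01 over all genes. The count over all genes in Mut_IDR3 against ΔIDR3, 1594, was 819 to 1143 with single libraries left out. That in Mut_IDR3 against GFP, 3114, was 1566 to 2277.

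Among the receptors, NOTCH2 rose with every form of TFAP2β, NOTCH3 fell with every form, and NOTCH1 rose with WT and fell with ΔIDR3. NOTCH1 (chromosome 9, 136494433 to 136545786) encodes the receptor best known as a tumour suppressor in squamous epithelium. It stood at 41.5, 39.6 and 51.0 CPM in WT, 31.9, 34.0 and 28.5 CPM in Mut_IDR3 and 25.7, 25.6 and 24.3 CPM in ΔIDR3, against 33.3, 35.6 and 31.3 CPM in GFP. The WT libraries lay above and the ΔIDR3 libraries below all others, and Mut_IDR3 overlapped GFP. The log2 fold change over GFP was 0.40 ± 0.10 in WT (SE; adjusted p = 0.00293) and -0.41 ± 0.10 in ΔIDR3 (adjusted p = 0.00676). With the GC trend of the libraries removed, the WT value was 0.06 with an adjusted p of 0.538. In Mut_IDR3 the value was -0.09, with a 95% interval of -0.30 to 0.12 (adjusted p = 0.581). Against WT, NOTCH1 was lower in Mut_IDR3 (log2 fold change -0.49, adjusted p = 0.00102) and in ΔIDR3 (-0.81, adjusted p = 8.39e-06). These values were -0.28 and -0.52 with the GC trend removed, both still called.

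NOTCH2 (chromosome 1, 119911553 to 120069626), the receptor with the most RNA in every group, stood at 120.7, 104 and 119.7 CPM in WT, 102, 102 and 99.7 CPM in Mut_IDR3 and 97.9, 101 and 94.0 CPM in ΔIDR3, against 79.96, 78.1 and 79.2 CPM in GFP. Every library with a form of TFAP2β lay above every GFP library. The log2 fold change over GFP was 0.54 ± 0.06 in WT (adjusted p = 2.33e-06), 0.35 in Mut_IDR3 (adjusted p = 0.0012) and 0.30 in ΔIDR3 (adjusted p = 0.00147). Against WT, NOTCH2 was lower in ΔIDR3 (-0.24, adjusted p = 0.00344) and, by a smaller margin, in Mut_IDR3 (-0.18, adjusted p = 0.0194). The Mut_IDR3 call was lost with the GC trend removed (-0.14, adjusted p = 0.0642) and without WT replicate 1 (adjusted p = 0.0956), WT replicate 3 (0.0638) or Mut_IDR3 replicate 3 (0.067). NOTCH2NLA, a near-identical copy of the start of NOTCH2, had 42.6 ± 5.81 CPM in WT and 22.0 ± 0.458 CPM in GFP, so reads shared by both genes make the NOTCH2 values uncertain.

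NOTCH3 (chromosome 19, 15159038 to 15200981) encodes a receptor best known in vascular smooth muscle. It stood at 14.3, 11.5 and 16.3 CPM in WT, 22.7, 25.5 and 22.8 CPM in Mut_IDR3 and 13.0, 11.1 and 10.3 CPM in ΔIDR3, against 40.0, 35.5 and 28.6 CPM in GFP. GFP lay above all other libraries, Mut_IDR3 came next, and WT and ΔIDR3 overlapped. NOTCH3 fell by 1.30 on the log2 scale in WT (SE 0.14, adjusted p = 1.8e-06), by 0.55 in Mut_IDR3 (adjusted p = 0.0109) and by 1.60 in ΔIDR3 (adjusted p = 1.67e-06). Of all genes tested, 4.5% had a lower log2 fold change in WT against GFP. Its level set the altered forms apart: it was higher in Mut_IDR3 than in ΔIDR3, by 1.04 on the log2 scale (SE 0.14, adjusted p = 0.000345). Mut_IDR3 exceeded WT by 0.75 (adjusted p = 0.000505), whereas ΔIDR3 differed from WT by -0.29 (95% interval -0.60 to 0.01, adjusted p = 0.0947). The last comparison was called without WT replicate 2 (-0.42, adjusted p = 0.0205) or ΔIDR3 replicate 1 (-0.42, adjusted p = 0.0357).

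**Figure D2:**
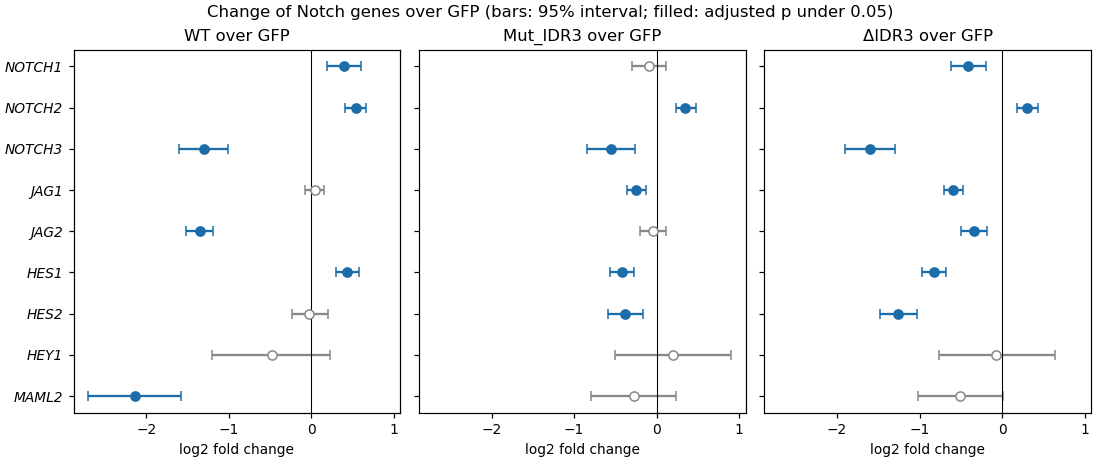
Log2 fold change over GFP of the 9 Notch genes with WT, Mut_IDR3 and ΔIDR3; points are edgeR estimates, bars are 95% intervals and filled points passed an adjusted p of 0.05. MAML2 (-2.14), JAG2 (-1.35) and NOTCH3 (-1.30) lie farthest left for WT, and NOTCH3 (-1.60) and HES2 (-1.26) for ΔIDR3.

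The ligand genes parted ways under WT. JAG2 (chromosome 14, 105140981 to 105168824), whose promoter with its single AP-2 match is printed above, encodes a Jagged ligand known from the basal layer of squamous epithelium. JAG2 stood at 46.5, 44.9 and 57.2 CPM in WT, 121.6, 123.9 and 123.5 CPM in Mut_IDR3 and 103.5, 99.0 and 97.3 CPM in ΔIDR3, against 134.5, 124.8 and 120.7 CPM in GFP. The highest WT library was far below the lowest library of any other group, ΔIDR3 lay below GFP, and Mut_IDR3 overlapped GFP. JAG2 fell by 1.35 on the log2 scale in WT against GFP (SE 0.08, adjusted p = 3.84e-09), and 4.02% of all genes had a lower value. It was higher than in WT by 1.31 in Mut_IDR3 (adjusted p = 7.19e-09) and by 1.01 in ΔIDR3 (adjusted p = 7.57e-08). Over GFP the log2 fold change was -0.04 in Mut_IDR3 (95% interval -0.20 to 0.12, adjusted p = 0.744) and -0.34 in ΔIDR3 (adjusted p = 0.00355). With the GC trend removed the Mut_IDR3 value was -0.17 and passed (adjusted p = 0.0353). Mut_IDR3 exceeded ΔIDR3 by 0.30 (adjusted p = 0.0206), a call that was lost without Mut_IDR3 replicate 2 (adjusted p = 0.0718) or 3 (0.068), or ΔIDR3 replicate 2 (0.0594) or 3 (0.068).

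JAG1 (chromosome 20, 10637684 to 10673999), the other Jagged ligand, did not pass in WT against GFP and fell with both altered forms. Its levels were 119.3, 114.8 and 118.4 CPM in WT, 97.3, 99.1 and 91.5 CPM in Mut_IDR3 and 73.9, 79.2 and 74.1 CPM in ΔIDR3, against 118.5, 108.4 and 114.5 CPM in GFP. WT and GFP overlapped, Mut_IDR3 lay below both, and ΔIDR3 lay below Mut_IDR3 without overlap. The log2 fold change over GFP was 0.05 in WT (95% interval -0.07 to 0.16, adjusted p = 0.503), -0.25 ± 0.05 in Mut_IDR3 (adjusted p = 0.00617) and -0.59 ± 0.05 in ΔIDR3 (adjusted p = 2.54e-06). The WT value changed sign to -0.08 with the GC trend removed. Mut_IDR3 exceeded ΔIDR3 by 0.34 (adjusted p = 0.0013). Against WT, JAG1 was lower by -0.29 in Mut_IDR3 (adjusted p = 0.000512) and by -0.63 in ΔIDR3 (adjusted p = 2.43e-07).

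Of the effectors, HES1 rose with WT and fell with both altered forms, HES2 fell with both altered forms, and HEY1 was close to the floor. HES1 (chromosome 3, 194136145 to 194138732) encodes the basic helix-loop-helix repressor that is the most widely used readout of Notch activity. It had 52.9, 54.6 and 52.6 CPM in WT, 30.4, 29.8 and 28.4 CPM in Mut_IDR3 and 22.8, 22.9 and 21.0 CPM in ΔIDR3, against 38.6, 40.4 and 39.1 CPM in GFP. No 2 groups overlapped, in the order WT, GFP, Mut_IDR3 and ΔIDR3 from high to low. The log2 fold change over GFP was 0.44 ± 0.07 in WT (adjusted p = 5.53e-05), -0.42 ± 0.07 in Mut_IDR3 (adjusted p = 0.00104) and -0.83 ± 0.07 in ΔIDR3 (adjusted p = 9.43e-07). Against WT, HES1 was lower by -0.85 in Mut_IDR3 (adjusted p = 1.63e-07) and by -1.27 in ΔIDR3 (adjusted p = 1.96e-09). Mut_IDR3 exceeded ΔIDR3 by 0.41 (adjusted p = 0.0018).

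HES2 (chromosome 1, 6412418 to 6424670) encodes a related repressor. Its levels were 26.0, 21.6 and 26.9 CPM in WT, 20.2, 19.2 and 18.9 CPM in Mut_IDR3 and 11.0, 9.71 and 10.9 CPM in ΔIDR3, against 28.0, 24.7 and 22.9 CPM in GFP. ΔIDR3 lay far below all other libraries, Mut_IDR3 below WT and GFP, and WT overlapped GFP. HES2 fell by 1.26 on the log2 scale in ΔIDR3 against GFP (SE 0.10, adjusted p = 9.43e-07) and by 0.38 in Mut_IDR3 (adjusted p = 0.0174). The Mut_IDR3 call was lost without Mut_IDR3 replicate 2 (adjusted p = 0.0643) or 3 (0.0604), or GFP replicate 1 (0.0697). In WT the value was -0.02 (95% interval -0.23 to 0.20, adjusted p = 0.886), but with the GC trend removed it was -0.35 and passed (adjusted p = 0.00199). HES2 was lower than in WT by -1.24 in ΔIDR3 (adjusted p = 1.95e-07) and by -0.36 in Mut_IDR3 (adjusted p = 0.01). The Mut_IDR3 value was -0.18 with the GC trend removed and did not pass (adjusted p = 0.0816). Mut_IDR3 exceeded ΔIDR3 by 0.88 (adjusted p = 0.000138).

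HEY1, a repressor of the same pathway, had only 119 counts in WT, 195 in Mut_IDR3 and 171 in ΔIDR3, against 162 in GFP. That is 1.08 ± 0.259 CPM in WT, 1.72 ± 0.394 CPM in Mut_IDR3 and 1.43 ± 0.446 CPM in ΔIDR3, against 1.51 ± 0.350 CPM in GFP (SD, n = 3 each). It passed in none of the 6 comparisons. The interval for WT against GFP, -1.20 to 0.23 on the log2 scale, includes changes of more than 2-fold.

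MAML2 (chromosome 11, 95976598 to 96343180), a Mastermind-like coactivator of the RBPJ complex and a known fusion partner in salivary gland tumours, had the largest change of any member in WT against GFP. It stood at 1.96, 1.07 and 2.25 CPM in WT, 7.14, 6.54 and 5.68 CPM in Mut_IDR3 and 4.24, 6.65 and 5.59 CPM in ΔIDR3, against 8.14, 5.84 and 9.38 CPM in GFP. The WT libraries (200 counts in all, against 875 in GFP) lay below all others, and the remaining groups overlapped. MAML2 fell by 2.14 on the log2 scale in WT against GFP (SE 0.26, adjusted p = 6.31e-06), and 1.22% of all genes had a lower value. It was higher than in WT by 1.87 in Mut_IDR3 (adjusted p = 4.35e-05) and by 1.63 in ΔIDR3 (adjusted p = 8.78e-05). Over GFP it did not pass in Mut_IDR3 (-0.27, 95% interval -0.79 to 0.24, adjusted p = 0.466) or ΔIDR3 (-0.51, 95% interval -1.02 to 0.01, adjusted p = 0.133). The fall was not shared by the other Mastermind-like genes, named here after their values were seen. MAML1 averaged 84.2 ± 6.25 CPM in WT and 71.3 ± 0.508 CPM in GFP. MAML3, close to the floor, averaged 1.65 ± 0.401 CPM in WT and 0.799 ± 0.267 CPM in GFP.

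**Figure D3:**
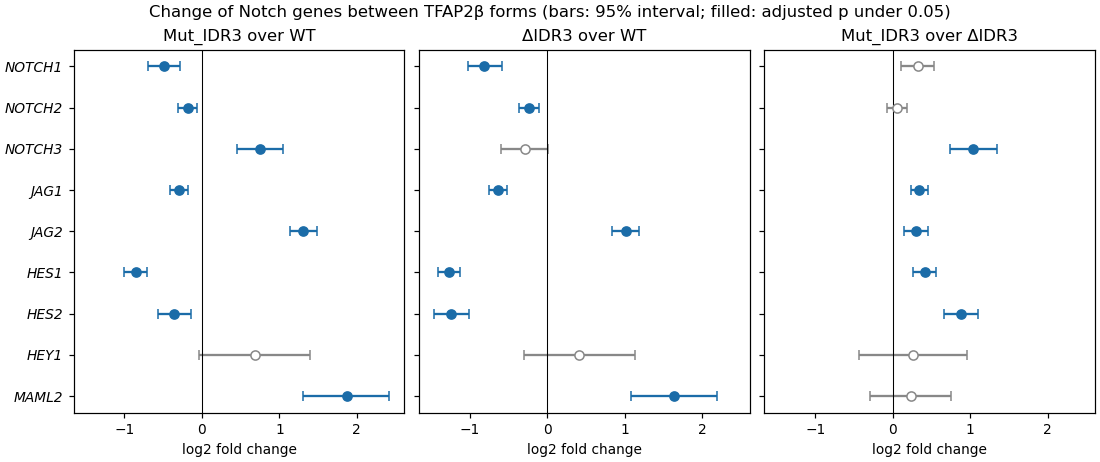
Log2 fold change of the 9 Notch genes in Mut_IDR3 over WT, ΔIDR3 over WT and Mut_IDR3 over ΔIDR3; points are edgeR estimates, bars are 95% intervals and filled points passed an adjusted p of 0.05. MAML2 (1.87 and 1.63) and JAG2 (1.31 and 1.01) lie right of 0 for both altered forms over WT, and HES1 (-0.85 and -1.27) left of it.

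The balance of the ligands within a library set WT apart. The ratio of JAG2 to JAG1, both per kb, was 0.397, 0.398 and 0.492 in WT, 1.27, 1.27 and 1.37 in Mut_IDR3 and 1.43, 1.27 and 1.34 in ΔIDR3, against 1.15, 1.17 and 1.07 in GFP. JAG2 thus made up 30.0 ± 2.59% of the summed Jagged level in WT, 56.6 ± 1.08% in Mut_IDR3 and 57.3 ± 1.40% in ΔIDR3, against 53.1 ± 1.18% in GFP (SD, n = 3 each). WT lay apart from every other group, and both altered forms lay above GFP without overlap. In a two-sided exact permutation test each of these pairs gave p = 0.1, which is the smallest that 3 against 3 libraries can give, and Mut_IDR3 against ΔIDR3 gave p = 0.7.

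The share of NOTCH3 among the receptors was lower with every form than in GFP, and that of NOTCH2 higher. NOTCH3 made up 9.81 ± 0.726% of the summed per-kb level of the 3 receptors in WT, 18.2 ± 0.729% in Mut_IDR3 and 10.5 ± 1.02% in ΔIDR3, against 27.4 ± 3.05% in GFP. NOTCH2 made up 61.4 ± 2.36% in WT, 59.3 ± 1.55% in Mut_IDR3 and 68.0 ± 0.992% in ΔIDR3, against 47.9 ± 2.77% in GFP (SD, n = 3 each). NOTCH1 made up 28.8 ± 2.01% in WT, 22.5 ± 1.19% in Mut_IDR3 and 21.5 ± 0.184% in ΔIDR3, against 24.7 ± 1.17% in GFP. Its share in WT (26.7 to 30.7%) lay above GFP (23.5 to 25.9%) without overlap. Set against NOTCH2 alone it did not: NOTCH1 per NOTCH2 was 0.421 to 0.522 in WT and 0.484 to 0.558 in GFP. The GC trend was not removed from these shares and ratios. NOTCH3 per NOTCH2 was 0.16 ± 0.0167 in WT, 0.307 ± 0.0190 in Mut_IDR3 and 0.154 ± 0.0174 in ΔIDR3, against 0.577 ± 0.0931 in GFP. The ratios of NOTCH3 to NOTCH2 did not overlap between groups except for ΔIDR3 and WT (exact permutation p = 0.5), with p = 0.1 in the other pairs. HES1 per HES2 was 5.87 ± 0.830 in WT, 4.11 ± 0.0809 in Mut_IDR3 and 5.71 ± 0.594 in ΔIDR3, against 4.25 ± 0.471 in GFP.

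**Figure D4:**
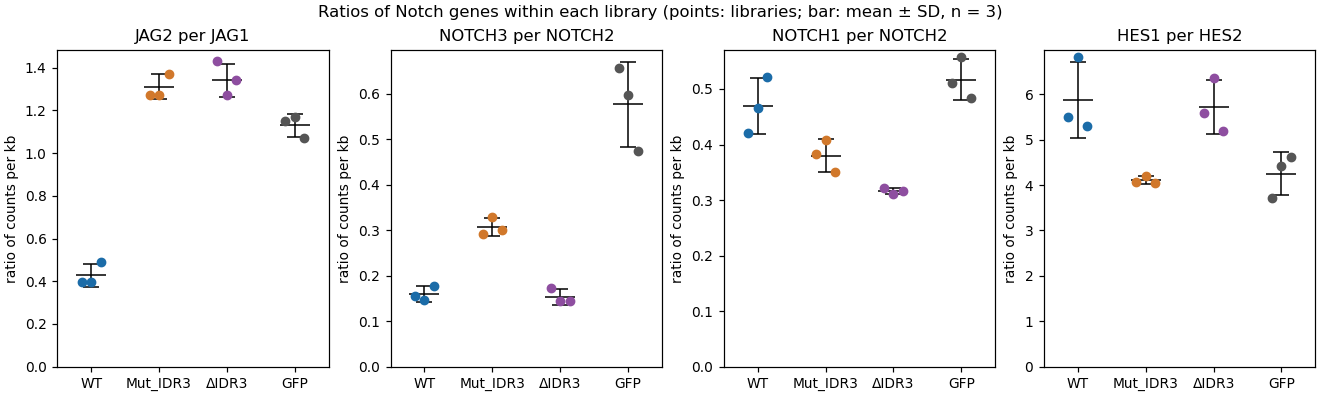
Ratio of counts per kb within each library for JAG2 per JAG1, NOTCH3 per NOTCH2, NOTCH1 per NOTCH2 and HES1 per HES2, by group; points are libraries and bars are means ± SD of 3. JAG2 per JAG1 is 0.397 to 0.492 in WT and at least 1.07 in the 9 other libraries.

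The GC content of a gene moved with its change. In WT against GFP the median log2 fold change was -0.61 in the fifth of genes with the lowest GC content (up to 41.3%) and 0.31 in the fifth with the highest (from 58.9%), with 2545 genes in each. In Mut_IDR3 against WT these medians were 0.35 and -0.17, and in ΔIDR3 against WT 0.45 and -0.27. The members that fell under WT had 64.03% GC (JAG2), 63.06% (NOTCH3) and 44.65% (MAML2), and those that rose had 62.94% (NOTCH1), 49.42% (NOTCH2) and 49.94% (HES1). With the trend removed, the log2 fold change in WT against GFP was -1.69 for JAG2, -1.64 for NOTCH3, -1.97 for MAML2, 0.43 for NOTCH2 and 0.30 for HES1, each still called. NOTCH1 was the member whose call ended in that comparison.

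**Figure D5:**
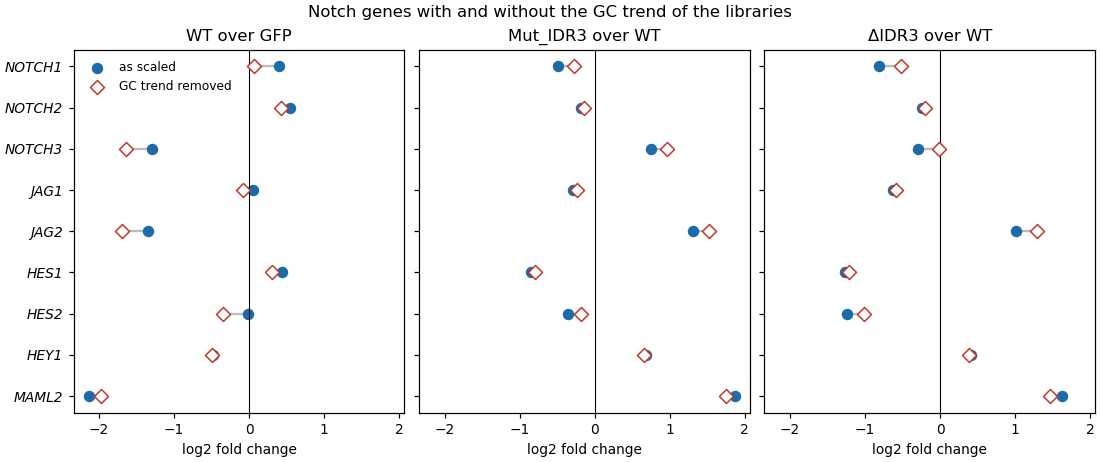
Log2 fold change of the 9 Notch genes as scaled (filled circles) and with the GC trend of each library removed (open diamonds), in WT over GFP, Mut_IDR3 over WT and ΔIDR3 over WT. In WT over GFP, NOTCH1 lies at 0.40 as scaled and 0.06 with the trend removed, and HES2 at -0.02 and -0.35.

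Further genes of the pathway were listed by role, with earlier results of these data known: 79 genes, of which 66 were tested. In WT against GFP 28 rose, 17 fell and 21 were not called, with a median log2 fold change of 0.13. Over all genes tested 27.7% rose and 27.1% fell in this comparison, with a median of -0.01, and each list below is to be read beside these shares. Of 14 genes listed as described Notch targets 10 were tested: 8 rose and 1 fell, with a median of 0.86. Because the list was made with earlier results known, these counts beside the background are not an independent test. The 10 include NOTCH2NLA (42.6 CPM in WT, 22.0 CPM in GFP), a copy of part of a receptor gene and not an established target. The counts and medians of this list are therefore not those of Notch targets alone. GATA3, a transcription factor of epithelial and T cell differentiation, had 43.5 ± 1.84 CPM in WT and 9.18 ± 0.763 CPM in GFP (log2 fold change 2.24, adjusted p = 6.03e-11). CDKN1A, the p21 inhibitor of the cell cycle, rose by 1.34 (adjusted p = 1.39e-08), and CD44, the hyaluronan receptor, by 0.87 (adjusted p = 2.07e-10). These genes also have regulators outside Notch.

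Most of these 10 genes, listed with earlier results known, were lower in the altered forms than in WT. NRARP, a Notch target listed under receptor turnover below and not among the 10, went the other way. It averaged 17.9 CPM in WT, 28.7 CPM in Mut_IDR3 and 22.7 CPM in ΔIDR3, against 25.0 CPM in GFP. In Mut_IDR3 against WT 1 of 10 was higher and 8 were lower (median -0.87), beside 23.2% and 20.9% of all genes (median 0.03). In ΔIDR3 against WT 1 was higher, 6 were lower and 3 were not called (median -0.77), beside 27.2% and 25.0% of all genes (median 0.03). GATA3 averaged 9.40 ± 0.461 CPM in Mut_IDR3 and 11.1 ± 0.510 CPM in ΔIDR3, below the 43.5 CPM of WT by log2 fold changes of -2.21 (adjusted p = 7.47e-11) and -1.97 (adjusted p = 2.11e-10). Against GFP 1 of the 10 changed in Mut_IDR3, CDKN1A (0.45, adjusted p = 0.00307, and 0.29 with the GC trend removed), and in ΔIDR3 4 rose and 1 fell.

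Of the other HES and HEY genes, HES7, HES4 and HES6 were the 3 of 8 with enough counts, and all 3 rose in WT against GFP. HES7, a repressor known from the segmentation clock, rose by 1.31 (adjusted p = 1.45e-07), HES4 by 0.41 (adjusted p = 0.000947) and HES6, an antagonist of HES1, by 0.46 (adjusted p = 0.00509). With the GC trend removed, HES4 (0.08, adjusted p = 0.393) and HES6 (0.13, adjusted p = 0.409) were no longer called. HES7 was lower than in WT by -0.96 in Mut_IDR3 (adjusted p = 5.3e-06) and by -1.02 in ΔIDR3 (adjusted p = 1.82e-06), and HES4 by -0.46 (adjusted p = 0.000616) and -0.80 (adjusted p = 2.57e-06). With the GC trend removed the HES4 values were -0.25 and -0.53, both still called. HES3, HES5, HEY2 and HEYL had 0 counts in all 12 libraries.

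Of 7 other receptors and ligands 4 were tested. In WT against GFP, DLK2, a non-canonical ligand that lacks the receptor-activating domain, fell by 1.06 on the log2 scale (adjusted p = 2.24e-07), with 13.1 ± 0.717 CPM in WT and 27.5 ± 3.10 CPM in GFP. DNER, another non-canonical ligand, rose by 1.07 (adjusted p = 0.00155), at low levels of 2.45 ± 0.279 CPM in WT and 1.17 ± 0.331 CPM in GFP. DNER was highest in ΔIDR3, at 5.02 ± 0.537 CPM, a log2 fold change of 2.11 over GFP (adjusted p = 1.99e-05). DLK2 was higher than in WT by 1.02 in Mut_IDR3 (adjusted p = 6.16e-07) and by 0.75 in ΔIDR3 (adjusted p = 7.48e-06). NOTCH4, with 47 counts over all libraries, and DLL3, with 5, were too low to test.

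Enzymes that modify, cleave and degrade the receptors moved both ways in WT against GFP: of 10 in receptor modification and ligand endocytosis 5 rose and 3 fell, of 9 in cleavage 4 rose and 1 fell, and of 10 tested in turnover 2 rose and 4 fell. ADAM10, the protease of the first activating cut, fell by 0.93 on the log2 scale (adjusted p = 1.54e-07), and by 0.28 with the GC trend removed. The convertase gene FURIN rose by 0.86 (adjusted p = 7.26e-07), and the gamma-secretase genes NCSTN by 0.51 (adjusted p = 2.34e-06) and APH1A by 0.49 (adjusted p = 1.36e-06). With the GC trend removed the values were 0.52 for FURIN, 0.35 for NCSTN and 0.20 for APH1A, each still called. The ubiquitin ligase genes MIB1, which acts on ligands, and ITCH, which acts on receptors, fell by 1.05 (adjusted p = 7.17e-06) and 0.89 (adjusted p = 2.21e-08), and by 0.39 and 0.28 with the GC trend removed. DTX2, a Deltex gene, rose by 1.24 (adjusted p = 4.03e-08). NRARP, a feedback inhibitor that is itself a Notch target, fell by 0.48 (adjusted p = 0.000235), and by 0.80 with the GC trend removed. NEURL3, of the Neuralized family, had 283 counts in WT and 15 in GFP (log2 fold change 4.15, adjusted p = 0.000254).

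In the nuclear complex and its corepressors 5 of 20 genes rose and 7 fell in WT against GFP. TLE1, a Groucho corepressor that HES proteins recruit, rose by 0.67 (adjusted p = 3.88e-08; 0.34 with the GC trend removed), and NCOR1, a corepressor, fell by 0.52 (adjusted p = 3.27e-05). HDAC2, a histone deacetylase, fell by 0.68 (adjusted p = 2.38e-06), and the value was -0.03 with the GC trend removed (adjusted p = 0.721). RBPJ, named here after its values were seen, had a log2 fold change of -0.65 in WT against GFP, and 0.01 with the GC trend removed (adjusted p = 0.945).

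Of the 66 other pathway genes, 8 rose and 6 fell in Mut_IDR3 against GFP, where 11.2% and 9.85% of all genes did. In ΔIDR3 against GFP 12 rose and 11 fell, beside 15.6% and 13.4% of all genes. In Mut_IDR3 against WT 17 were higher and 24 lower, beside 23.2% and 20.9% of all genes, and in ΔIDR3 against WT 22 were higher and 22 lower, beside 27.2% and 25.0%. In Mut_IDR3 against ΔIDR3 8 were higher and 2 lower, beside 5.54% and 5.24% of all genes. With single libraries left out, the calls numbered 8 to 13 in Mut_IDR3 against GFP (8 without Mut_IDR3 replicate 2, 9 without GFP replicate 2) and 4 to 9 in Mut_IDR3 against ΔIDR3 (4 without Mut_IDR3 replicate 1 or ΔIDR3 replicate 2, 5 without Mut_IDR3 replicate 2). In Mut_IDR3 against ΔIDR3 they numbered 16 with the GC trend removed and 17 with only these groups in the fit. NRARP was higher than in WT by 0.68 in Mut_IDR3 (adjusted p = 1.81e-05) and by 0.34 in ΔIDR3 (adjusted p = 0.00365; 0.62 with the GC trend removed). FURIN was lower by -0.75 (adjusted p = 5.61e-06) and -1.02 (adjusted p = 1.68e-07). NEURL1, a Neuralized ubiquitin ligase gene, was lower by -0.87 (adjusted p = 6.97e-06) and -1.38 (adjusted p = 4.89e-08). In Mut_IDR3 against ΔIDR3, NEURL1 was higher by 0.51 (adjusted p = 0.00564), and CCND1, the cyclin D1 gene, was lower by -0.34 (adjusted p = 0.000307).

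For each member the genes with the most similar course over the 12 libraries were sought by the root mean square difference of centred log2 CPM, among tested genes averaging at least 5 CPM. The closest to JAG2 were ZNF488 (0.096), EPB41L1 (0.099) and ALDH3B1 (0.109), against a root mean square of 0.556 for JAG2 around its own mean. The closest to HES1 were EML2 (0.092), TMC4 (0.104) and TM4SF1 (0.104), against 0.472 for HES1 itself. NOTCH3 was matched less closely, by TMPRSS4 (0.209), PRODH (0.238) and TRPV6 (0.244), against 0.647. For NOTCH1 the nearest was FAM234A (0.062), for NOTCH2 ALDOA (0.037), for JAG1 WWC3 (0.084), for HES2 FXYD3 (0.157), for MAML2 TMEM67 (0.25) and for HEY1 GRK3 (0.241). The HEY1 and MAML2 distances lie below the 0.305 that each of these genes spread within groups. The same holds for NOTCH1 (spread 0.104) and NOTCH2 (0.054), so these matches are no finer than the replicates allow. The libraries also share their depth and GC trend.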

How the data were processed

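The deposited table held raw read counts per gene for 12 libraries. Per the submitters' processing notes, the authors used Trim Galore, HISAT2 and StringTie with GRCh38/hg38. Their versions, the read counter, the gene annotation and the strand of counting are not given in the sources used here, so genes that overlap a member on the other strand and near-identical copies are uncertain. The 9 members and all other lists were chosen with earlier results of these data known. Of 24302 features 14792 passed filterByExpr. They were scaled by TMM and tested with edgeR 4.0.16 (R 4.3.3) by the quasi-likelihood F test over all 4 groups (8 residual degrees of freedom), with Benjamini-Hochberg adjustment over all genes of a comparison. The SE of a log2 fold change is its size over the root of F. Its 95% interval uses the fit's degrees of freedom. Log2 CPM used a prior count of 2. Length and GC content came from each gene's longest protein-coding GENCODE transcript, or its longest transcript where it had no protein-coding one. GC offsets used 20 bins of genes averaging at least 1 CPM, and 86% of tested genes had a GC value. Up to 4 called genes of a pathway list with the lowest adjusted p could be named per comparison. Alternatives were DESeq2 1.42.0, limma-voom (limma 3.58.1), other scalings, filters and fits, and each library left out. The code was tested on simulated data. Some listed genes are counted but not reported by name here.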

Additional observations from a re-analysis of the deposited data

How the results depend on the processing

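The 9 members' log2 fold changes in 6 comparisons gave 864 values under the alternatives, of which 829 kept direction and side of the threshold, 16 lost a call, 12 gained one and 7 changed sign without being called either way. The cause of these changes was not tested. The sign changes were JAG1 in WT against GFP with GC offsets (-0.08) and with the replicate block and GC offsets (-0.07), HES2 in WT against GFP with single libraries left out (-0.08 to 0.07), and HEY1 with single libraries left out in Mut_IDR3 against GFP (-0.0044 to 0.32) and ΔIDR3 against GFP (-0.27 to 0.15). The number of genes called was 3114 in Mut_IDR3 against GFP, 1874 with the replicate block and GC offsets and 1566 to 2277 with single libraries left out. In Mut_IDR3 against ΔIDR3 it was 1594, and 819 to 1143 with single libraries left out. NOTCH1 in Mut_IDR3 against ΔIDR3 (0.32, adjusted p = 0.0535) passed under 7 alternatives, with adjusted p of 0.0191 with DESeq2, 0.0425 with GC offsets and 0.0467 with median-ratio scaling among them. Samples that share a replicate number did not deviate together (correlations of -0.068 to 0.076 over 18 pairs, 6 of them highest with their own number), so the numbers were not taken to pair samples. With the replicate block, 7932 genes were called in WT against GFP, 2795 in Mut_IDR3 against GFP, 3984 in ΔIDR3 against GFP, 6280 in Mut_IDR3 against WT, 7471 in ΔIDR3 against WT and 1206 in Mut_IDR3 against ΔIDR3, and the members' calls were as many as without it. Counts were lowest for HEY1 and MAML2, with 119 and 200 in the WT libraries, and these members had the widest intervals.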

Other observations

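The markers of squamous epithelium, listed as a check of the cell line with earlier results of these data known, moved as well. In WT against GFP 6 of the 10 rose and 3 fell (median log2 fold change 0.48), beside 27.7% and 27.1% of all genes. In Mut_IDR3 against GFP 1 rose and 2 fell (median 0.01), beside 11.2% and 9.85% of all genes. In ΔIDR3 against GFP 1 rose and 6 fell (median -0.24), beside 15.6% and 13.4%. In Mut_IDR3 against WT 2 were higher and 6 lower, beside 23.2% and 20.9%. In ΔIDR3 against WT 2 were higher and 7 lower, beside 27.2% and 25.0%. Their part in the differences of the Notch genes was not tested.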
